A study of Canis lupus familiaris with 20 samples.

Results

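The normal change of gene expression in the vertebral epiphyseal cartilage of young dogs was described by comparing different animals at postnatal day 9 and postnatal day 14. The comparison used 10 of the 20 RNA sequencing libraries of the series, 5 from control dogs at day 9 and 5 from control dogs at day 14, chosen by the genotype and age on their labels, and it ran across all genes. Control dogs were heterozygous for the missense change R166H in GUSB, the gene of the lysosomal enzyme beta-glucuronidase, so they too carried 1 changed allele. The other 10 libraries came from homozygous dogs with mucopolysaccharidosis VII (MPS VII), 5 at day 9 and 5 at day 14, and entered the same fit. They are used here to show where the age change of controls differed. Each library was made from 1 animal, in which cartilage from the cranial and the caudal end of the T12 vertebra was combined after disc tissue had been removed. Genotypes were litter-matched per the series' design, but no litter, sex or preparation batch was used here. Whether animals of an age shared litters is not given in the sources used here. A part of litter in the age change could not be told apart from age, and the tests treat animals as independent. Control animals are numbered 1 to 5 within an age only to name them.

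The ends of a vertebral body are first made of cartilage. During secondary ossification, chondrocytes inside this cartilage enlarge and calcify their matrix, blood vessels and matrix-resorbing cells enter, and osteoblasts lay down bone on the remnants. The series concerns the failure of this process in MPS VII, a storage disease of incomplete glycosaminoglycan breakdown. The control dogs give the course of the tissue without the disease.

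The table gives Ensembl gene identifiers and CanFam3.1 positions without names, and 0 of its 24580 identifiers matched the symbol table used here. Genes are therefore described by position, exon structure and level, with no role given to any of them. For the same reason the cartilage, bone, vessel and blood cell markers that would check the tissue, and the level of GUSB, were not analysed here. In whole tissue, more cells of a type and more RNA per cell cannot be told apart.

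The control libraries held 22703756 to 28028365 counts at day 9 and 16975358 to 20766128 at day 14, so every day 14 library was shallower than every day 9 library. The exact two-sided permutation test gave p = 0.00794, the smallest value that 5 against 5 animals allow, or 0.0119 after adjustment over 6 library measures. The number of genes with a count was 16603 ± 199 (mean ± SD, n = 5, for all levels) at day 9 and 16685 ± 98.3 at day 14 and did not differ by the exact test (p = 0.452). Of counts under 200 above 0, 74.9% ± 1.62 were even numbers at day 9 and 70.8% ± 1.84 at day 14, which also differed (adjusted exact p = 0.0119). Depth and the share of even counts go with age, and their part in the age change cannot be told apart from age itself. Thinning all libraries to equal totals left 5938 age calls where the full counts gave 6187.

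Control cartilage changed widely within these 5 days. Of 14550 genes tested by edgeR's quasi-likelihood test, 6187 (42.5%) differed between the ages at a Benjamini-Hochberg adjusted p below 0.05. The calls were close to even in direction in this fit, with 3176 genes higher at day 14 (21.8%) and 3011 lower (20.7%). This balance depended on the settings. Rises and falls were 3913 and 3752 with controls alone in the fit and 3484 and 2971 by DESeq2. They were 3456 and 2561 with scaling without the 20 most abundant genes. In 2942 genes (20.2% of those tested) all 5 day 14 libraries lay above all 5 day 9 libraries, and in 2652 (18.2%) all lay below. Without animal 1 of day 14 the count of calls was 5186, and it was 5911 without animal 3 of day 14, the lowest and highest counts when 1 control library was left out.

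The rises were larger than the falls. At least 2-fold rises were called in 1289 genes (8.86% of those tested) and at least 2-fold falls in 639 (4.39%). At 4-fold the counts were 291 and 49, at 8-fold 59 and 7, and at 32-fold 7 and 0. The median log2 fold change over all tested genes was -0.06, which the scaling sets near 0, and the 5th percentile lay at -1.08 and the 95th at 1.46.

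**Figure D1:**
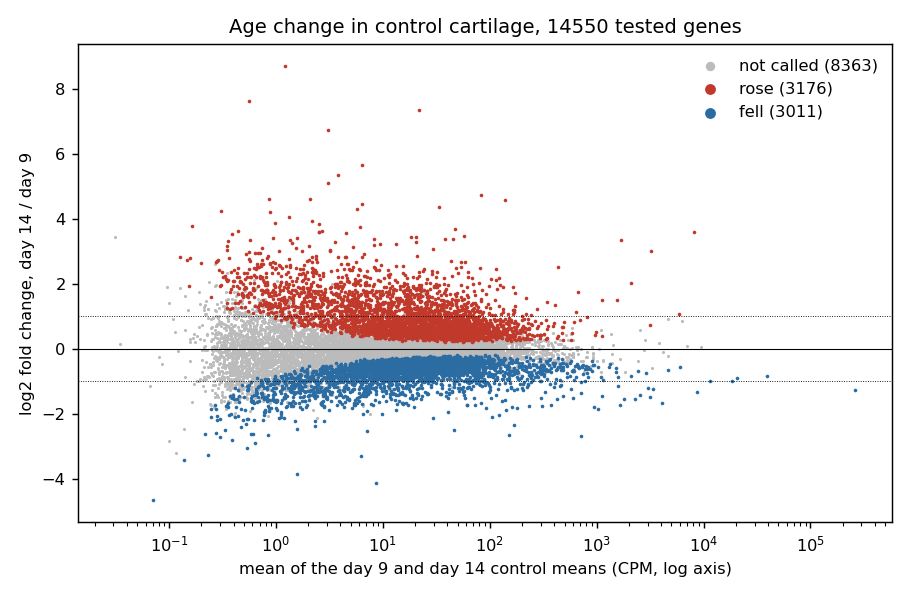
Each point is 1 of 14550 tested genes, with the mean of the day 9 and day 14 control levels in CPM (log axis) against the log2 fold change from day 9 to day 14. Red points rose (3176), blue points fell (3011), grey points were not called, and the dotted lines mark 2-fold changes; the red points reach farther from 0 than the blue ones, and blue points dominate at the highest levels.

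Level and direction went together among the most abundant genes. Of 302 genes with a control mean above 300 CPM (counts per 1000000 of the normalised library size), 38 rose and 126 fell. These were 12.6% and 41.7%, against 21.8% and 20.7% of all tested genes. The median log2 fold change of the 302 was -0.35. Of 3066 genes between 30 and 100 CPM, 913 rose (29.8%) and 692 fell (22.6%). The genes that fell took 59.4% to 66.5% of all counts in the day 9 libraries and 34.2% to 48.9% in the day 14 libraries. The genes that rose took 7.31% to 10.5% at day 9 and 18.8% to 26.5% at day 14. Since these sets were picked on the same libraries, these shares describe the change and do not test it.

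The gene with the largest share of the counts was among those that fell. It is ENSCAFG00000009059, at chr27:6756994-6787846 on the plus strand, with 54 exon blocks (separate stretches of exon) and 5042 exon bases, the most abundant gene per length in control cartilage. Its levels in the 5 day 9 animals were 251047, 383350, 384630, 462148 and 384891 CPM. In the day 14 animals they were 80690, 164675, 238239, 104358 and 184298 CPM, all below the lowest day 9 animal. The log2 fold change was -1.27 ± 0.38 (SE; edgeR adjusted p = 0.011). Its share of the library was 31.9% ± 3.62 at day 9 and 17.5% ± 5.83 at day 14, and that of the 20 most abundant genes together was 49.0% ± 3.77 and 34.7% ± 5.64. Both shares differed by the exact test (adjusted p = 0.0119 each). Because CPM are shares of a total, a fall of this size lifts the shares of other genes, which the TMM scaling (trimmed mean of M values) is meant to adjust for. With library sizes computed without the 20 most abundant genes, 3456 genes rose and 2561 fell.

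Of the 20 genes with the highest level per length in controls, 4 rose, 9 fell and 7 did not pass the test, against 21.8% and 20.7% among all genes. The gene at chr4:57659350-57680981 fell from 26666 ± 3333 to 14172 ± 2402 CPM (log2 fold change -0.91 ± 0.18). The gene at chr6:47425307-47622225, with 69 exon blocks, fell from 50412 ± 4433 to 27981 ± 4286 CPM (-0.85 ± 0.21). The gene at chr12:32763693-32847276, with 40 exon blocks, fell from 24611 ± 1239 to 12285 ± 1877 CPM (-1.002 ± 0.26). In all of these the animals of the 2 ages did not overlap. The gene at chr22:9746296-9765774 had the largest fall of the 20, from 4634 ± 391.8 to 1660 ± 335 CPM (-1.48 ± 0.17).

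Against this trend, 1 nuclear gene of the 20 rose. It lies at chr32:11354096-11362391, has 7 exon blocks, and went from 723 ± 271 to 5776 ± 1835 CPM (log2 fold change 2.998 ± 0.29, edgeR adjusted p = 9.62e-08). The other 3 that rose lie on the mitochondrial chromosome. The fall at chr5:73292408-73299559, from 2992 ± 89.4 to 1860 ± 233 CPM, was lost without animal 1 (adjusted p = 0.0528) or animal 4 (0.0604) of day 14. A short gene on an unplaced scaffold, at bases 20602 to 20754, had 1607 CPM in animal 4 of day 9 against 109 to 259 in the other day 9 animals. Its log2 fold change was 0.03 with all animals and 1.32 without that animal (adjusted p = 0.0302).

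The 12 largest rises with non-overlapping animals and at least 10 CPM at day 14 ranged from 3.46 to 7.36 on the log2 scale. The largest was ENSCAFG00000001178, at chr13:33735489-33974004 on the minus strand, with 65 exon blocks and 5936 exon bases. It was almost silent at day 9, with 0.488, 0.0854, 0.264, 0.348 and 0.0896 CPM, and stood at 43.1, 11.6, 23.6, 108.6 and 31.1 CPM at day 14. The lowest day 14 animal lay far above the highest day 9 animal, but the day 14 animals also spread widely, with animal 4 the highest and animal 2 the lowest. The log2 fold change was 7.36 ± 0.81 (edgeR adjusted p = 1.28e-06), and it was 6.71 without animal 4 of day 14.

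The gene at chr5:64257310-64277178, with 14 exon blocks, behaved alike at a lower level. It had 0.209, 0.256, 0.44, 0.232 and 0.0896 CPM at day 9 and 11.4, 5.04, 9.07, 27.2 and 10.3 CPM at day 14 (log2 fold change 5.65 ± 0.65, edgeR adjusted p = 1.34e-06). Its exons share bases with a gene on the opposite strand, and how strand was set in the counting is not given in the sources used here. Reads of the 2 genes may be mixed. The partner did not pass the filter on low counts.

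Other large rises started from a measurable level. The gene at chr10:7659241-7726642, with 10 exon blocks, had 13.8, 11.01, 13.3, 9.45 and 8.55 CPM at day 9 and 293, 176, 245, 371 and 255 CPM at day 14 (log2 fold change 4.57 ± 0.58, adjusted p = 5.55e-06). The single-exon gene at chr32:11051535-11052842 had 8.89, 4.27, 8.54, 4.17 and 3.67 CPM at day 9 and 226, 71.6, 71.1, 316 and 109 CPM at day 14 (4.74 ± 0.82). In both genes the lowest day 14 animal was several-fold above the highest day 9 animal. This single-exon gene lies on the same chromosome as the abundant riser at chr32:11354096-11362391 described above.

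The gene at chr37:8547922-8731180, with 13 exon blocks, had the second smallest p of the 12. It had 3.7, 2.22, 3.43, 3.3 and 2.69 CPM at day 9 and 78.8, 32.8, 38.4, 115.1 and 51.3 CPM at day 14 (log2 fold change 4.36 ± 0.34, edgeR adjusted p = 1.63e-08). Its day 9 animals were close together and its day 14 animals spread widely, all of them higher.

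By absolute level the greatest gain among the 12 was ENSCAFG00000030721, at chr12:71801379-71809983 on the minus strand, with 3 exon blocks and 4434 exon bases. It had 1482, 1688, 1787, 880 and 260 CPM at day 9 and 15905, 12978, 20868, 13412 and 11445 CPM at day 14. The log2 fold change was 3.61 ± 0.57 (edgeR adjusted p = 5.37e-05). Per kilobase of exon its level went from 275 to 3365 CPM, beside 6785 and 3387 CPM per kilobase for the falling gene at chr12:32763693-32847276. Its exons share bases with those of a gene on the opposite strand, which itself rose from 14.95 to 32.5 CPM (log2 fold change 1.12), a level that is small beside it.

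The other 6 of the 12 lie at chr9:26017194-26023071, chr27:5411374-5412162, chr14:14319840-14345870, chr14:39567473-39645409, chr17:30269745-30278554 and chr25:14985731-15075792. The chr9 gene went from 0.546 ± 0.52 to 12.2 ± 5.84 CPM (log2 fold change 4.46 ± 0.57, and 5.15 without animal 3 of day 9). The chr14 gene at 39567473 went from 6.75 ± 2.45 to 87.1 ± 37.8 CPM (3.68 ± 0.34) and the chr17 gene from 9.51 ± 2.15 to 105 ± 38.6 CPM (3.46 ± 0.33). The chr27 gene was the most even between animals, with 11.9, 10.5, 9.64, 12.3 and 10.4 CPM at day 14 against 0.384 to 0.928 at day 9 (4.32 ± 0.32, edgeR adjusted p = 5.34e-09). It is a single-exon gene of 789 bases that shares exon bases with an opposite-strand gene at 23.2 CPM at day 9 and 28.9 at day 14, so its level is uncertain too.

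**Figure D2:**
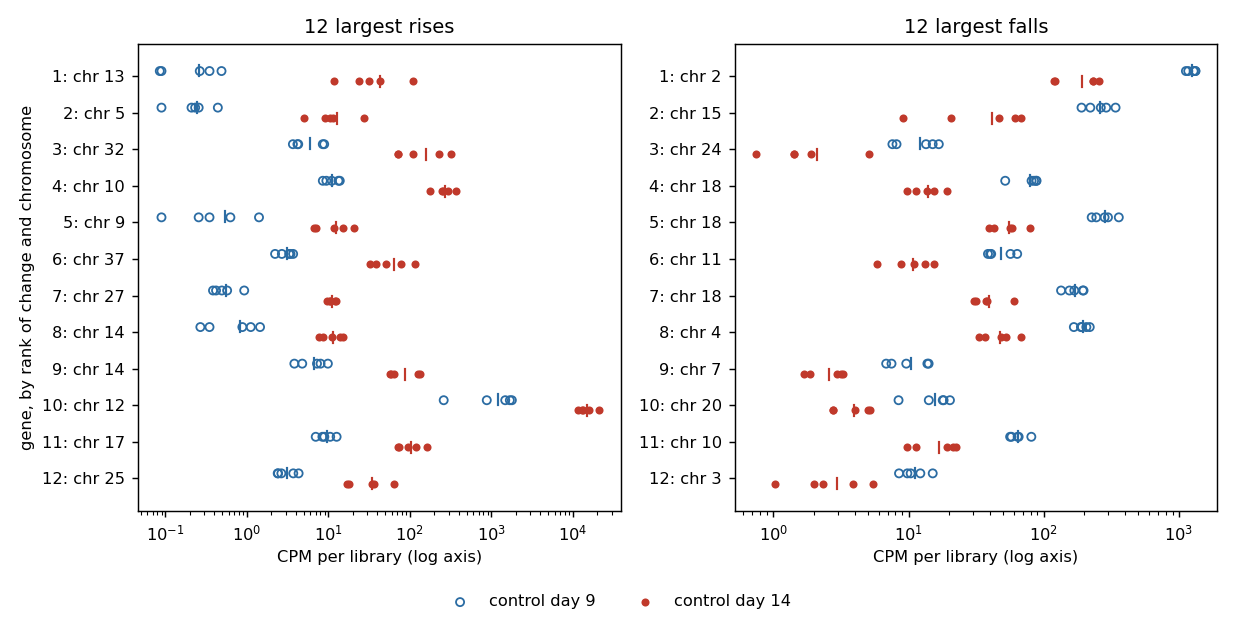
Each row is 1 gene named by its rank and chromosome, and each circle is 1 control library in CPM (log axis), open blue at day 9 and filled red at day 14, with short lines at the means of 5 animals. The 24 genes were chosen among those in which the 2 ages do not overlap, and the rises reach larger ratios than the falls.

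The 12 largest falls with non-overlapping animals and at least 10 CPM at day 9 ranged from -1.92 to -2.70 on the log2 scale. The largest of these 12 was ENSCAFG00000011269, at chr2:70225456-70234420 on the plus strand, with 12 exon blocks and 2378 exon bases. It had 1128, 1328, 1322, 1286 and 1173 CPM at day 9 and 233, 256, 121, 119 and 230 CPM at day 14. The day 9 animals agreed closely, and the highest day 14 animal was more than 4-fold below the lowest of them. The log2 fold change was -2.70 ± 0.29 (edgeR adjusted p = 3.92e-07).

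The gene at chr15:31670414-31735104, with 8 exon blocks, had 221, 265, 340, 290 and 190 CPM at day 9 and 61.8, 68.1, 9.07, 20.5 and 47.0 CPM at day 14 (log2 fold change -2.66 ± 0.51). Its day 14 animals differed by over 7-fold, with animal 3 the lowest. The gene at chr4:73787829-73808924 had 167, 189, 192, 219 and 207 CPM at day 9 and 52.3, 67.9, 36.9, 33.2 and 48.6 CPM at day 14 (-2.03 ± 0.42). The gene at chr10:23994305-23998240 fell from 64.9 ± 9.78 to 16.8 ± 5.86 CPM (-1.95 ± 0.25) and the gene at chr11:52205668-52211267 from 48.1 ± 11.4 to 10.9 ± 3.77 CPM (-2.15 ± 0.26). The single-exon gene at chr24:43590339-43591082 fell from 12.2 ± 4.13 to 2.12 ± 1.71 CPM (-2.52 ± 0.46, and -3.11 without animal 2 of day 14).

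The falls reached both small and very long genes. The gene at chr3:59222982-59676638, with 28 exon blocks, fell from 11.2 ± 2.56 to 2.95 ± 1.75 CPM, and the gene at chr7:22772332-23035014, with 23 exon blocks, from 10.4 ± 3.42 to 2.58 ± 0.755 CPM. The gene at chr20:52724651-52776884, with 63 exon blocks, fell from 15.8 ± 4.66 to 3.95 ± 1.18 CPM. The remaining 3 of the 12, at chr18:46076928-46079538, chr18:46206173-46206243 and chr18:46206389-46206483, lie within a short stretch of chromosome 18.

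Of the tested genes, 3 had no count in any day 9 control. The gene at chr7:19498755-19514228, with 5 exon blocks, had 73, 14, 17, 127 and 35 counts in the day 14 animals, 266 in all, of which animal 4 gave the most. With 3 counts over all 5 day 9 animals taken as the limit that a count of 0 allows, its level was at least 94.2-fold higher at day 14, or at least 47.1-fold with counts halved, for counting error only (edgeR adjusted p = 0.000329). It had 0 counts in all 10 MPS VII libraries. The single-exon gene at chr1:111083448-111083951 had 48, 30 and 46 counts in animals 1, 3 and 5 of day 14 and 0 in animals 2 and 4. Its adjusted p was 0.034 and rose above the threshold in 8 of the 10 fits without 1 control animal, in the fit with no filter on low counts (0.0675) and by DESeq2 (0.052). It had counts in some MPS VII animals of both ages. The third, at chrX:55882433-55883557, had 6 counts at day 14 and was not called.

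Genes that changed at least 2-fold lay partly in runs of neighbours. There were 52 runs in which 3 or more tested genes in a row all rose or all fell at least 2-fold, of which 40 rose and 12 fell. They held 182 of the 1928 genes called with at least 2-fold changes. Of the runs, 38 had 3 genes, 9 had 4 and 5 had 5 or more. When 1 control library was left out, 42 to 54 runs were found. The 6 runs with most genes are described next, with the tie among runs of 4 genes broken by the size of the median change.

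The longest falling run held 8 genes at chr18:46124411-46324933. The gene at chr18:46076928-46079538, named above among the largest falls and outside the run, fell from 78.9 ± 15.4 to 13.9 ± 3.75 CPM. Summed over the 8 genes, the level was 2336 CPM at day 9 and 622 at day 14. Most of that sum came from the gene at chr18:46293985-46304805, with 7 exon blocks, which fell from 1616 ± 344 to 447 ± 178 CPM (log2 fold change -1.85 ± 0.26). Among its neighbours are 3 single-exon genes of 69 to 95 bases between 46206173 and 46207250, shorter than the 100-base reads. Whether these 3 are separate transcripts, and so count as 3 genes of the run, was not tested. They had 170 ± 26.6, 282 ± 51.8 and 221 ± 28.1 CPM at day 9 and 39.5 ± 11.9, 55.4 ± 15.8 and 59.6 ± 13.5 at day 14, with log2 fold changes of -2.10, -2.35 and -1.89. The first gene of the run, at chr18:46124411-46125727, had an adjusted p of 0.0421 and lost its call in 7 of the 10 fits without 1 control animal and under 3 other settings.

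The longest rising run also held 8 genes, at chr27:35828941-36766777, with log2 fold changes from 1.47 to 2.80 and no overlap between the ages in any of the 8. Of these, 7 were low, at or below 5 CPM at day 14, and the gene at chr27:36654072-36696052, with 36 exon blocks, rose from 11.02 ± 3.53 to 33.3 ± 7.35 CPM. Of the genes between them in the table, 9 did not pass the filter on low counts. The run at chr16:14752828-14896569 held 6 low genes with 2 to 4 exon blocks each, which summed to 2.92 CPM at day 9 and 11.5 at day 14, with log2 fold changes from 1.71 to 2.49 (3.13 for the last value without animal 1 of day 9). The run at chr8:2753242-2952167 held 5 low genes, summing to 2.02 and 7.92 CPM. The call of its last gene, at chr8:2943109-2952167, was lost in 4 of the 10 fits without 1 control animal.

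The other 2 runs held higher genes. At chr36:5535554-6828572, 5 genes with 6 to 35 exon blocks rose by 1.03 to 2.24 on the log2 scale, among them the gene at chr36:5978063-6110420, from 69.3 ± 6.21 to 141 ± 6.36 CPM. At chr3:73520706-73663660 there were 3 single-exon genes of 2373 to 2424 bases and another gene with 6 exon blocks. The single-exon genes rose by 2.76, 2.43 and 2.67 (3.70 without animal 1 of day 9) on the log2 scale from levels under 2 CPM, and the other gene from 28.5 ± 3.01 to 59.0 ± 3.88 CPM (1.05 ± 0.09). Whether these neighbours are alike in sequence, so that the counting could have split reads between them, was not tested.

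**Figure D3:**
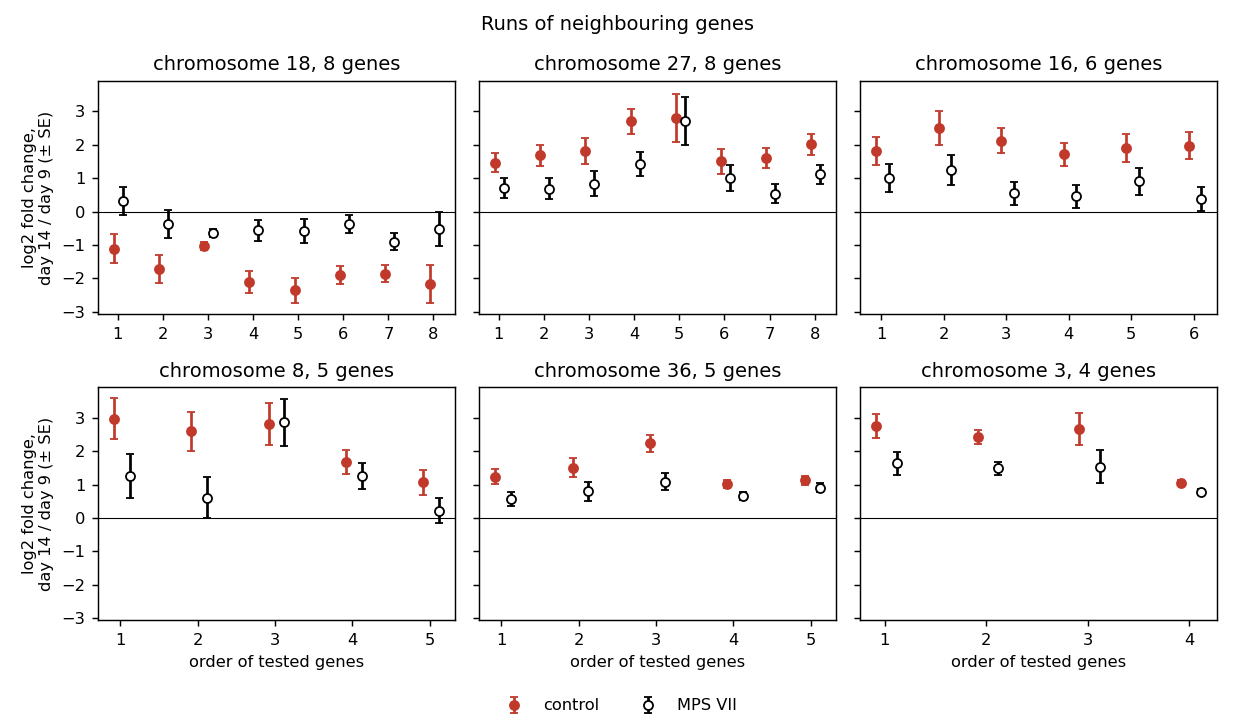
Each panel is 1 run of neighbouring tested genes in chromosome order, with the log2 fold change from day 9 to day 14 and its standard error for controls (filled) and MPS VII dogs (open). In controls all genes of a run lie on 1 side of 0 because the run was defined so, which also favours control values farther from 0 than those of MPS VII dogs.

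The mitochondrial chromosome is transcribed as long precursor RNAs that are cut into shorter RNAs. It made up 2.60% ± 0.449 of the raw counts of a library at day 9 and 3.80% ± 0.854 at day 14 (exact adjusted p = 0.0381). The fall of the most abundant gene lifts all other shares of raw counts, this one included. After TMM scaling the median log2 fold change of the mitochondrial genes tested was -0.11. The single genes did not move together. Of 17 tested, 5 rose (29.4%, against 21.8% of all tested genes), 4 fell (23.5%, against 20.7%) and the rest were not called. Their log2 fold changes ran from -1.25 to 2.53. The gene at MT 7803-8006 had 109, 97.1, 144, 197 and 94.4 CPM at day 9 and 941, 737, 570, 799 and 646 at day 14, a rise of 2.53 ± 0.28 on the log2 scale (edgeR adjusted p = 5.47e-07). Its neighbour at MT 7964-8644, with which it shares bases on the same strand, had 4986 ± 1177 and 4292 ± 598 CPM and was not called. How reads in the shared bases were counted is not given, so these 2 values may not be separate changes. The gene at MT 9496-9842 fell from 813 to 346 CPM (-1.23 ± 0.18), while the gene after it, at MT 9911-10207, rose from 183 to 499 CPM (1.44 ± 0.19). The gene at MT 5349-6893 rose from 3748 to 7954 CPM (1.09 ± 0.15) and the gene at MT 8644-9427 fell from 7211 to 4876 CPM (-0.56 ± 0.16).

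The same uneven pattern stood in MPS VII dogs, whose libraries are separate. There the log2 fold changes of these genes with age were 2.49 at MT 7803-8006, -0.96 at MT 9496-9842, 1.39 at MT 9911-10207, 0.66 at MT 5349-6893 and -0.48 at MT 8644-9427. The difference between genotypes was called in 0 of the 17 mitochondrial genes by the edgeR test, against 3.26% of all tested genes. At that share, 0 calls among 17 genes do not set them apart from other genes. Whether libraries of the 2 ages were prepared or counted together is not given in the sources used here, and its part in the changes common to both genotypes was not tested.

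Gene structure went with direction as well. Of 1184 genes with 1 exon block, 137 rose and 261 fell (median log2 fold change -0.32), and of 2035 genes with over 20 exon blocks 575 rose and 349 fell (0.06). The classes between them moved in steps, with medians of -0.22 for 2 to 3 exon blocks, -0.09 for 4 to 6, -0.04 for 7 to 10 and 0.01 for 11 to 20. In MPS VII dogs the median for 1 exon block was -0.18 and for over 20 exon blocks 0.00.

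Chromosomes differed in the same graded way. Chromosome 36 had the highest median, 0.31, with 40.0% of its 125 tested genes called higher and 9.60% called lower. It was followed by chromosome 19 at 0.28 and by chromosomes 22 and 29 at 0.21 each. Chromosome 20 had the lowest median, -0.23, with 11.9% of its 715 tested genes called higher and 29.7% lower. The X chromosome stood at -0.17, with 101 genes higher (18.2%) and 150 lower (27.0%) of 555, against 21.8% and 20.7% of all tested genes.

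These chromosomes also differ in how densely genes lie on them. Chromosome 36 has 6.85 genes of the table per Mb and chromosome 20 has 17.8. Across the 38 autosomes, gene density and median log2 fold change were inversely related (Pearson r = -0.761, Spearman rho = -0.777), given as a description, since all chromosomes share the same 10 libraries and the same depth. Across chromosomes, the median exon length of a chromosome's genes was less related to its median (r = 0.262). Within each of 5 equal classes of genes by exon length, genes on chromosomes below 10.01 genes per Mb had the higher median, from -0.23 against -0.27 in the shortest genes to 0.23 against 0.07 in the longest. Gene by gene, the median thus also rose with exon length on both kinds of chromosome. That rise was wider than the gap between the 2 kinds in any length class. In MPS VII dogs the density relation was r = -0.761, and the chromosome medians of the 2 genotypes, from separate libraries, had r = 0.919. Base composition could not be computed here, and its part in these gradients was not tested.

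**Figure D4:**
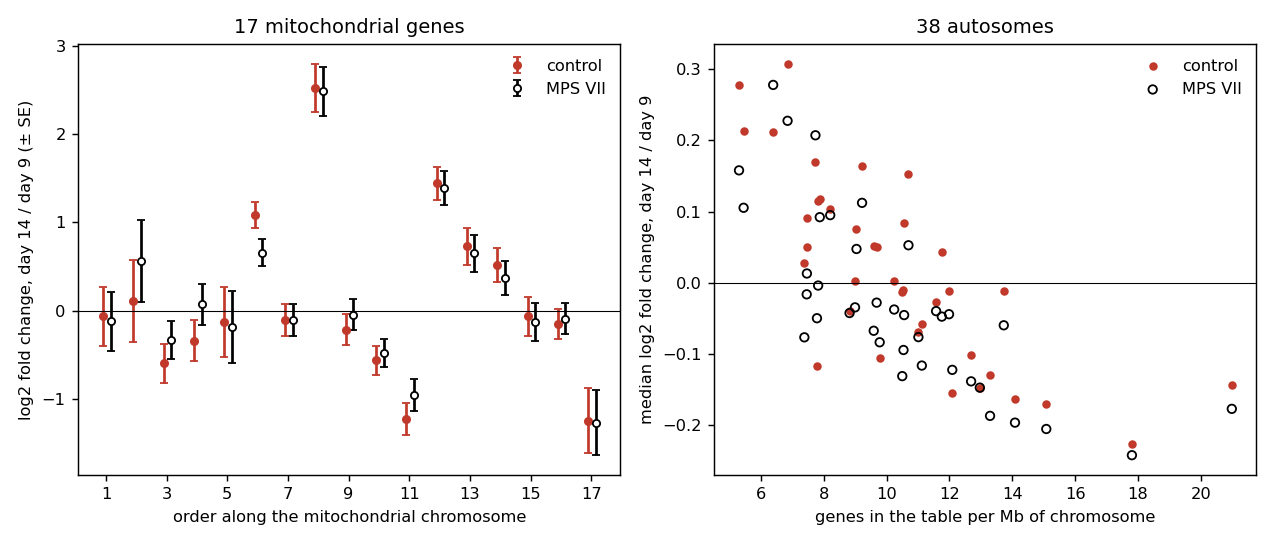
Left, the log2 fold change from day 9 to day 14 and its standard error for the 17 tested mitochondrial genes in order; right, the median log2 fold change of each of the 38 autosomes against its genes per Mb. Controls are filled and MPS VII dogs open; in both panels the 2 genotypes follow each other closely, and gene-dense autosomes have the lower medians.

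Animals of the same age were about equally alike at both ages. The median over tested genes of the SD of log2 CPM was 0.207 among day 9 controls and 0.206 among day 14 controls, against 0.342 and 0.278 among MPS VII animals. Within day 14, animals 4 and 1 stood farthest along the age change. Of the 1289 genes that rose at least 2-fold, animal 4 was the highest of the 5 in 508 and animal 1 in 361, and of the 639 that fell at least 2-fold animal 4 was the lowest in 224 and animal 1 in 200. Among the 12 largest rises animal 4 was the highest in 11, and animals 2 and 3 were the lowest in 7 and 4. The same animals had the smallest shares of the most abundant gene, 10.4% in animal 1 and 12.9% in animal 4 against 19.1% to 24.7% in the others. They had the highest mitochondrial shares of raw counts, 5.07% and 4.09%, which a smaller share of the most abundant gene also lifts. Within day 9, animal 1 was the highest in 568 of the rising genes and the lowest in 236 of the falling ones, and had the smallest share of the most abundant gene, 25.7%.

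These ranks use genes that the same libraries selected. Genes that rose at least 2-fold in MPS VII dogs, 428 in number, were selected without the control libraries apart from the shared filter and estimate of the spread. Over them the median log2 CPM of the day 14 controls was 3.76 in animal 1, 3.74 in animal 4, 3.59 in animal 2 and 3.50 in both animals 3 and 5. Over the 167 genes that fell at least 2-fold in MPS VII dogs, the day 14 controls had medians of 0.42 to 0.79, the highest in animal 2 and the lowest in animal 3, so animals 1 and 4 did not stand apart there.

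In MPS VII dogs 3297 genes (22.7%) were called between day 9 and day 14 by the same fit. Their animals varied more within an age, as given above, so the number of calls does not by itself compare the size of the age changes. Of the 3176 genes that rose in controls, 1472 were also called higher and 13 called lower in MPS VII dogs, and of the 3011 that fell 864 were called lower and 4 higher. The median log2 fold change of the rising genes was 0.85 in controls and 0.46 in MPS VII dogs, and that of the falling genes -0.65 and -0.33. Choosing genes by their control change favours a larger control value, so these medians, and all counts of the difference among genes, runs or ranks chosen by their control change below, are a description.

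The difference of the age change was tested itself, as an interaction in the same fit. It was called in 474 genes (3.26%), in 354 with the more positive change in controls and in 120 with the more negative one. Of the 474, 457 were also called with age in controls. They made up 345 of the 3176 rising genes (10.9%) and 112 of the 3011 falling genes (3.72%). All of these had the larger change in controls, a direction that the choice of genes nearly fixes. Among at least 2-fold changes they made up 254 of 1289 rises (19.7%) and 61 of 639 falls (9.55%). This count depended on single animals. It was 199 without animal 4 and 224 without animal 1 of control day 14, and 248, 308, 276 and 263 without animals 2, 3, 4 and 5 of control day 9. It was 253 without animal 5 of MPS VII day 14 and 759 without animal 3 of MPS VII day 9, in which the most abundant gene took 7.48% of counts against 25.4% to 33.2% in the others of its group. DESeq2 called 938.

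Of the 12 largest rises, 11 were called in the test of the difference, against 3.26% of all genes. The 12 were chosen for a large change in the same control libraries, which favours such a call. The exception was the chr27 gene at 5411374, with a log2 fold change of 3.76 ± 0.31 in MPS VII dogs against 4.32 ± 0.32 in controls. The chr13 gene ENSCAFG00000001178 had 0.606 CPM at day 9 and 0.21 at day 14 in MPS VII dogs. The chr12 gene ENSCAFG00000030721 had 606 and 709 CPM there, where controls went from 1219 to 14921. The abundant chr32 gene at 11354096 had 844 and 1215 CPM there (log2 fold change 0.53 ± 0.27), with a difference of 2.47 ± 0.39 (adjusted p = 0.00169).

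Of the 12 largest falls, 3 were called in the test of the difference, at chr2:70225456-70234420, chr11:52205668-52211267 and chr10:23994305-23998240. The chr2 gene ENSCAFG00000011269 had 2503 and 1557 CPM in MPS VII dogs, higher than controls at both ages, and a difference of -2.02 ± 0.39 (adjusted p = 0.00763). The most abundant gene, ENSCAFG00000009059, had 285580 and 211092 CPM in MPS VII dogs (log2 fold change -0.44 ± 0.38), and its difference of -0.84 ± 0.54 did not pass the test (adjusted p = 0.429).

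The smallest p for the difference among genes with a change in controls belonged to the gene at chr33:785673-1092293, with 18 exon blocks. It went from 6.65 ± 0.885 to 69.6 ± 22.4 CPM in controls (log2 fold change 3.38 ± 0.18) and from 10.5 to 13.7 CPM in MPS VII dogs, a difference of 2.99 ± 0.25 (adjusted p = 5.32e-07). The gene at chr18:42616367-42665127, with 39 exon blocks, went from 9.64 to 42.6 CPM in controls and from 7.54 to 6.4 CPM in MPS VII dogs (difference 2.37 ± 0.25). The genes at chr6:16270227-16293442 and chr7:60736854-60949331 rose by 2.28 and 3.44 on the log2 scale in controls and had changes of 0.12 and -0.09 in MPS VII dogs. On the falling side, the gene at chr18:32476290-32547935 went from 93.5 ± 11.1 to 28.3 ± 5.97 CPM in controls and from 105 to 77.3 CPM in MPS VII dogs (difference -1.28 ± 0.21, adjusted p = 0.00303). The gene at chr2:28440950-28510822 went from 144 ± 22.1 to 40.6 ± 6.83 CPM and from 91.0 to 62.0 CPM (difference -1.27 ± 0.21). The other 3, at chr26:7896837-7914234, chr16:44882118-45066154 and chr6:12122549-12129347, fell by 0.59, 1.16 and 0.92 in controls and had changes of 0.23, -0.22 and 0.15 in MPS VII dogs.

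**Figure D5:**
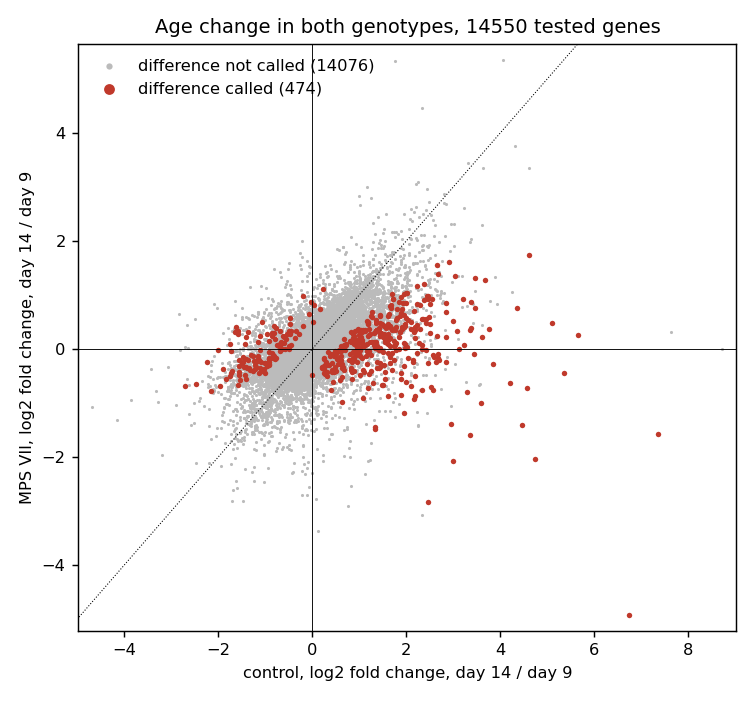
Each point is 1 of 14550 tested genes, with the log2 fold change from day 9 to day 14 in controls on the horizontal axis and in MPS VII dogs on the vertical axis; the dotted line marks equal changes. Red points are the 474 genes whose age change was called different; most lie at positive control values and near 0 for MPS VII dogs.

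Among runs of neighbours, the median change in MPS VII dogs had the same sign as in controls in 49 of 52. The runs were chosen for large control changes, so a smaller value in MPS VII dogs is favoured by that choice. In the chromosome 18 run it was -0.54 against -1.87 in controls, and the difference was called for 1 of the 8 genes, at chr18:46207182-46207250. In the chromosome 27 run it was 0.92 against 1.74, with 0 of 8 differences called by edgeR. In the chromosome 36 run it was 0.80 against 1.24 and in the chromosome 3 run 1.51 against 2.55, with 0 differences called in either. Runs outside the 6 described held more such calls. At chr32:11051535-11362391 the difference was called for all 3 genes, with a median of 0.35 in MPS VII dogs against 3.36 in controls. Each remaining run held 0 to 2 called differences, with 2 of 3 genes at chr7:19498755-19955853 and at chr18:18014358-20376138. Over all tested genes the difference was called in 3.26%.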

How the data were processed

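Polyadenylated RNA from 20 dogs was sequenced with a stranded kit in paired 100-base reads and mapped to CanFam3.1 (Ensembl build 77), as the labels' protocols state. Tools named in the submitters' processing notes are STAR 2.4.0j, HTSeq, edgeR, CASAVA 1.8.2 and bcl2fastq. Values in the deposited table are raw counts of each gene, with exon positions, strand and length, per the file headers. How reads of overlapping or near-identical genes were counted is not given in the sources used here. Each count column matched 1 sample title, and 0 columns belonged to no sample. Replicates are separate animals, per the series' design. Most low counts were even, as when both mates of a pair are counted, so fits were repeated on halved counts; intervals and bounds cover counting error only.

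Counts were fitted with edgeR 4.0.16 in R 4.3.3 (filterByExpr, which kept 14550 genes and dropped 10030 with 0.0413% of counts, TMM scaling, robust quasi-likelihood test) over all 20 libraries with 1 mean per group. The Benjamini-Hochberg adjustment covered all 14550 genes, and calls needed an adjusted p below 0.05. Standard errors were taken as log2 fold change / square root of F. CPM use TMM-scaled library sizes. Spread and ranks between animals use log2 CPM with a prior count of 2. Library measures were compared by exact two-sided permutation tests. Alternatives were DESeq2 1.42.0, other scaling, no filter, controls alone, halved or thinned counts, and leaving out each library.

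Named genes were the 12 with the largest change in each direction among called genes with no overlap between ages and at least 10 CPM in the higher group, the 20 most abundant per length, the genes of the 6 runs with most genes, those with no day 9 count, and the 5 with the smallest p per direction for the difference between genotypes. Without symbols, the lists of cell type and pathway genes were not used, and identifiers are printed for 4 genes. The comparison, rules and lists were chosen with earlier results of these data known.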

Additional observations from a re-analysis of the deposited data

Results flagged for a closer look

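Values far from the other animals of their group were looked for in 192 groups of 5 control libraries, the named genes and library measures at each age, and 10 were found; chance alone flags about 1 in 20. Among day 9 animals, animal 1 had the outlying value of 4 genes. It had 51.9 CPM at chr18:46076928-46079538 against 81.4 to 88.6 in the others, 1.53 CPM at chr16:14846997-14852147 against 0.29 to 0.64, 0.418 CPM at chr8:2791807-2794950 against 0.0854 to 0.179, and 0.697 CPM at chr3:73568321-73570744 against 0.0854 to 0.232. Without it the log2 fold changes of the chr8 and chr3 genes were 3.23 and 3.70 in place of 2.60 and 2.67. Animal 4 of day 9 had 6332 CPM at chr15:31834014-31877417 against 5423 to 5677, and 1607 CPM in the short gene on the unplaced scaffold, at bases 20602 to 20754, against 109 to 259.

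Among day 14 animals, animal 4 had 27.2 CPM at chr5:64257310-64277178 against 5.04 to 11.4 and 1.97 CPM at chr8:2838847-2840023 against 1.25 to 1.45. Animal 2 had 5.09 CPM at chr24:43590339-43591082 against 0.75 to 1.90. Animal 5 had 59.9 CPM at chr18:46206173-46206243 against 30.8 to 38.2.

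The age change of 25 of the 90 named genes differed between controls and MPS VII dogs in the edgeR test of the difference itself, against 3.26% of all tested genes. Of the 25, 10 were named for their small p in this test and others for a large control change, so the number called is fixed in part by the choice of genes. The differences, controls minus MPS VII on the log2 scale, were 8.93 for the chr13 gene at 33735489, 6.77 for the chr32 gene at 11051535, 5.86 for the chr9 gene at 26017194, 5.39 for the chr5 gene at 64257310 and 5.29 for the chr10 gene at 7659241. They were 3.61 for the chr37 gene at 8547922, 3.54 for the chr7 gene at 60736854, 3.39 for the chr12 gene at 71801379, 3.38 for the chr14 gene at 14319840 and 2.99 for the chr33 gene at 785673. They were 2.70 for the chr25 gene at 14985731, 2.47 for the chr32 gene at 11354096, 2.41 for the chr14 gene at 39567473, 2.37 for the chr18 gene at 42616367, 2.16 for the chr6 gene at 16270227 and 2.14 for the chr17 gene at 30269745. On the negative side they were -2.02 for the chr2 gene at 70225456, -1.51 for the chr18 gene at 46207182, -1.38 for the chr11 gene at 52205668, -1.28 for the chr18 gene at 32476290 and -1.27 for both the chr10 gene at 23994305 and the chr2 gene at 28440950. The last 3 were -1.07 for the chr6 gene at 12122549, -0.93 for the chr16 gene at 44882118 and -0.82 for the chr26 gene at 7896837. Adjusted p-values ran from 5.32e-07 at chr33 to 0.041 at chr10:23994305-23998240. Animal 3 of MPS VII day 9 had 60.0 CPM in the chr32 gene at 11051535, against 1.52 to 8.67 in the others of its group. In the chr10 gene at 7659241 it had 32.6 CPM against 2.85 to 4.09. Such a high day 9 value makes the MPS VII change more negative and the difference larger. The fit was repeated without that animal, but its differences for these genes are not reported here.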

How the results depend on the processing

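No paired analysis was possible because the labels carry no replicate numbers that link animals across groups. The count of age calls in controls stayed within 1.5 times its value of 6187 under every setting run, from 5781 with no filter on low counts to 7665 with controls alone in the fit, and from 5186 to 5911 with 1 control library left out. The counts of at least 2-fold calls (1928, and 1733 to 2029 with 1 control left out) and of runs (52, and 42 to 54) did so too. Without animal 3 of MPS VII day 9, a setting chosen after seeing the data, these counts were 7246, 2066 and 54. The difference between genotypes was less stable, with 199 to 759 calls when 1 library was left out and 938 by DESeq2; the cause was not tested. Median-ratio size factors gave 3333 rises and 2728 falls in place of 3176 and 3011. With 1 library left out, the uncalled log2 fold change of the mitochondrial gene at 7034-7717 went from -0.11 to 0.0029, and that of the scaffold gene at 20602-20754 from 0.03 to between -0.23 and -0.13 (-0.18, -0.15, -0.13, -0.23, -0.21 and -0.23), and to 1.32 without animal 4 of day 9. Of 679 values of named genes under other settings, 670 kept their direction and their side of the threshold. With controls alone in the fit, 4 uncalled abundant genes passed the threshold, at chr25:23987091-23989934 (-0.42), chr27:31735326-31738744 (0.60), chr22:5711210-5714899 (-0.30) and chr17:40049082-40049447 (-0.26). For genes below 1 CPM, depth limits the comparison, and 192 of 1784 rose (10.8%) and 138 fell (7.74%), against 21.8% and 20.7% of all tested genes.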

Other observations

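A pair of neighbouring single-exon genes on the X chromosome was on in some control animals and off in others without regard to age. The genes at chrX:57332501-57332626 and chrX:57353997-57354081 both had counts in animals 3 and 5 of day 9 and in animals 1, 4 and 5 of day 14. The first had 23.5 to 34.5 CPM in those day 9 animals and 14.4 to 17.5 CPM in those day 14 animals, and the second 5.37 to 6.40 and 2.59 to 4.36 CPM. Both were at 0 counts in the other 5 control libraries. In MPS VII dogs both were on in 4 of 5 animals at day 9 and in 2 of 5 at day 14. Neither was called with age by edgeR (adjusted p = 0.917 and 0.943). The genes were chosen after their values were seen.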
